A study of Mus musculus with 12 samples.

Results

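The unfolded protein response of the endoplasmic reticulum (ER) and the amino acid response run by the transcription factor ATF4 were followed as a set of 40 genes in the mouse adrenal medulla. The members were listed by symbol, and each was read from its probe set of highest mean over 12 arrays. An annotated probe set was found for 38 of the 40 members, among 19572 probe sets with 1 gene symbol. Pdia4 and Manf had none in the annotation used and were not analysed here.

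Proteins that enter the secretory pathway fold in the ER with the help of chaperones, and proteins that fail to fold are passed to the cytosol for degradation. When unfolded protein accumulates, the membrane sensors IRE1 (Ern1), PERK (Eif2ak3) and ATF6 raise the transcription of chaperones and degradation factors, partly through the transcription factor XBP1. PERK and other kinases also phosphorylate the initiation factor eIF2, which favours translation of ATF4, and ATF4 switches on genes for amino acid uptake, serine and asparagine synthesis and redox balance. Chromaffin cells of the adrenal medulla are secretory cells that release catecholamines and peptides, and they do so during hypoglycaemia.

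The study asked how germ-free mice answer insulin-induced hypoglycaemia. All animals were male C57Bl6 mice, either normally colonized or germ free, and each had fasted for 3 h before an intraperitoneal injection. Insulin was given at 2 IU/kg and control animals received saline, and the medullae were dissected 90 min later. Each of the 4 groups held 3 animals with 1 array each: colonized saline (animals 1 to 3), colonized insulin (4 to 6), germ-free saline (7 to 9) and germ-free insulin (10 to 12). Values are log2 intensities, so a difference of 1 is a doubling of signal. Levels were compared between animals for 1 probe set at a time, never between genes.

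Of the 12 chromaffin markers measured, 10, among them Th, Dbh and Pnmt of catecholamine synthesis, lay above the 95th percentile of the negative control rows on all 12 arrays. Phox2a and Hand2 did so on the 6 colonized arrays alone, where that percentile was lower. The chromaffin markers averaged 10.77 to 11.21 (animals 1 to 3), 10.94 to 11.52 (4 to 6), 10.70 to 10.86 (7 to 9) and 9.95 to 10.49 (10 to 12), lowest in the germ-free insulin animals with no overlap. The 11 markers of the adrenal cortex, which surrounds the medulla, averaged 12.07 to 12.48 (animals 1 to 3), 12.53 to 12.54 (4 to 6), 12.63 to 12.64 (7 to 9) and 12.58 to 12.61 (10 to 12), lowest in the colonized saline animals. Their SD was 0.21 in colonized saline animals and, in the same order, 0.0052, 0.0015 and 0.015 in the other groups. A cortex covariate therefore takes its slope mostly from the colonized saline animals. Adipocyte markers ranged from 6.85 to 10.51 in colonized saline, 6.44 to 8.61 in colonized insulin, 9.10 to 9.81 in germ-free saline and 10.32 to 10.69 in germ-free insulin animals. Liver markers reached 10.61 in colonized saline animal 2, against 6.00 and 7.55 in animals 1 and 3. They ranged from 6.09 to 6.47 in colonized insulin, 8.24 to 9.61 in germ-free saline and 7.18 to 8.55 in germ-free insulin animals. Single liver markers differed: in animal 12 Alb read 6.66 and Apoa1 7.16, while Ttr read 10.94 and Cyp2e1 11.69. Intestinal markers averaged 7.79 to 9.72 in germ-free saline and 5.13 to 5.55 in all other arrays, and pituitary markers 6.62 to 7.45 in germ-free insulin and 5.17 to 5.75 in the others. Of the 8 pituitary markers measured, 6 lay under the 95th percentile of the negative controls on all arrays. In animals 10 to 12 Gh read 10.31, 11.43 and 12.06, while Tshb read 5.26, 5.35 and 5.10. The median of the negative control rows ran from 4.70 to 4.83 on the colonized arrays, and from 5.30 to 5.54 on the germ-free ones, so the ranges did not overlap. Their 95th percentile ran from 7.21 to 7.48 on the colonized and from 8.23 to 8.41 on the germ-free arrays. The same intensity can therefore pass it on colonized arrays and not on germ-free ones. In such bulk tissue, fewer cells of a type and less RNA per cell cannot be told apart.

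**Figure D1:**
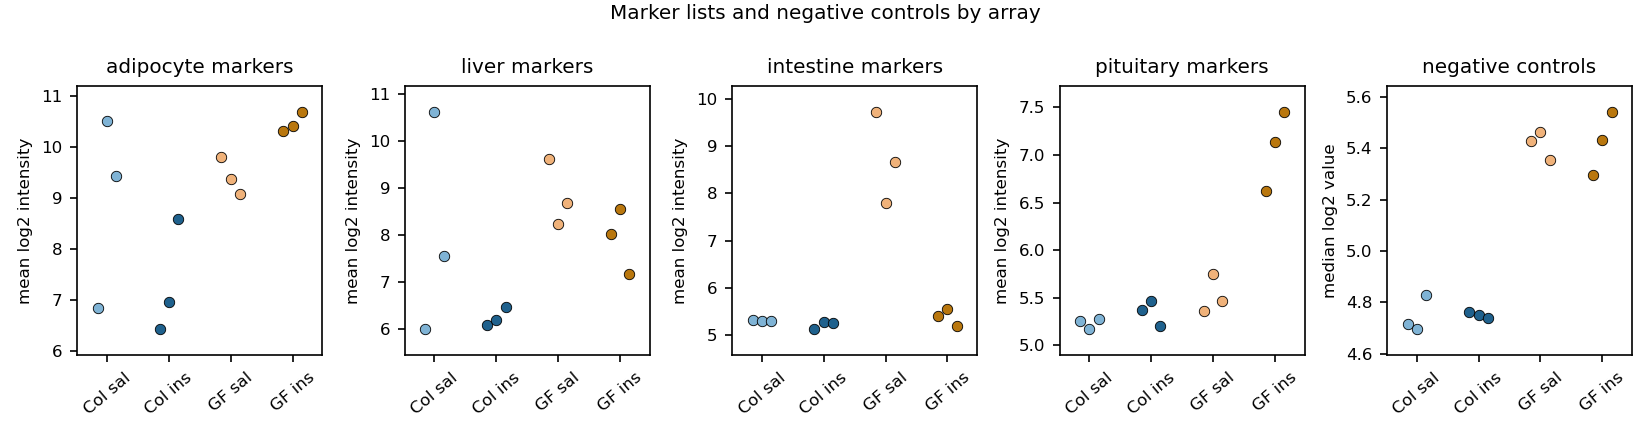
Mean log2 intensity of 4 marker lists and median log2 value of the negative control rows (y axes) by group (x axis; Col, colonized; GF, germ-free; sal, saline; ins, insulin), 1 point per animal. Adipocyte and liver markers spread widely within the colonized saline group, and the negative controls of all 6 germ-free arrays lie above those of the 6 colonized arrays.

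Colonized saline animal 2 stood apart among the members. It held the lowest of the 12 values for 16 of the 38 members, against 20.3% of all probe sets. Relative to the mean of animals 1 and 3 it was lower for 29 of 38 members, with a median of -0.30 against -0.039 over all probe sets. Values without this animal are given beside the results that it moves most. In contrasts that do not use the colonized saline group it enters through the estimate of the spread only.

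Part of the gene set shares short promoter elements. The members were listed as genes of the responses after which such elements are named, so members and elements are not independent choices. RefSeq promoters (build GRCm38.p6, 250 bases before to 50 after the start of transcription) were found for 35 of the 38 members. Searched on both strands were the ER stress element ERSE (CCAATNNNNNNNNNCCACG), the related ERSE-II (ATTGGNCCACG), the UPRE core (TGACGTGG) and the C/EBP-ATF response element, CARE (TGATGNAA). ERSE and ERSE-II end in the same 5 letters, whose complement is also part of the UPRE core. ERSE was found in 8 member genes (Calr, Canx, Creld2, Dnajc3, Hsp90b1, Hspa5, Pdia6 and Syvn1), and in 0.119% of all 32851 promoters. ERSE-II was found in Dnajb11 and Herpud1 and in 0.0365% of all promoters. CARE was found in 7 member genes (Asns, Chac1, Herpud1, Nupr1, Slc7a11, Trib3 and Vldlr) and in 3.97% of all promoters, and the UPRE core in no member and in 0.676% of all. A match is a stretch of letters and not a measured binding site.

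The 250 bases upstream of 6 members are shown 5′ to 3′, with the fixed letters of the elements in capitals. Hspa5 carries ERSE, Herpud1 both ERSE-II and CARE, and Asns and Slc7a11 carry CARE, once and at 2 places. Atf4 and Parp16, both called between saline groups, held none of the 4 elements.
Hspa5 (chr2:34771840-34772089, plus strand): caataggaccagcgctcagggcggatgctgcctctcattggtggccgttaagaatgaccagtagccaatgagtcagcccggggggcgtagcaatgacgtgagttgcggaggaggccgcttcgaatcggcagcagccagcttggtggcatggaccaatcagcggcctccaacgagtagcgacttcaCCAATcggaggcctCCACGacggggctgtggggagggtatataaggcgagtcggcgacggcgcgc
Herpud1 (chr8:94386179-94386428, plus strand): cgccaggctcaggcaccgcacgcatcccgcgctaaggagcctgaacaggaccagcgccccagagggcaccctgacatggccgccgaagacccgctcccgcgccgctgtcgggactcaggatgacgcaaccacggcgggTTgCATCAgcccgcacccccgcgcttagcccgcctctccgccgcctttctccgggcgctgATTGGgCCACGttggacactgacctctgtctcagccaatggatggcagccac
Asns (chr6:7693210-7693459, minus strand): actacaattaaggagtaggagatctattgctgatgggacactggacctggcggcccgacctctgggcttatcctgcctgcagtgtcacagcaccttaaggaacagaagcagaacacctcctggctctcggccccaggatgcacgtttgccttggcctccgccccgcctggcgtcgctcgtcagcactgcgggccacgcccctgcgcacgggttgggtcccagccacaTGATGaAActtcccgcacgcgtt
Slc7a11 (chr3:50443614-50443863, minus strand): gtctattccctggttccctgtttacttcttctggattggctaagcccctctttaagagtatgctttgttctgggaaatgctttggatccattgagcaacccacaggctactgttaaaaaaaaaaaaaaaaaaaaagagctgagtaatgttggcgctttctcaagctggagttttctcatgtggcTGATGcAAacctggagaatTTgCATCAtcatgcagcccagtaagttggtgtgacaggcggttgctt
Atf4 (chr15:80254934-80255183, plus strand): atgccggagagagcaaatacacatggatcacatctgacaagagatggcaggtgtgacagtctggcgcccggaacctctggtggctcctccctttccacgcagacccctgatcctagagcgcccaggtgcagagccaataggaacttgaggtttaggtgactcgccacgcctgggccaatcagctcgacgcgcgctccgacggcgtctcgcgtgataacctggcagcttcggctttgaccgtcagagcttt
Parp16 (chr9:65214440-65214689, plus strand): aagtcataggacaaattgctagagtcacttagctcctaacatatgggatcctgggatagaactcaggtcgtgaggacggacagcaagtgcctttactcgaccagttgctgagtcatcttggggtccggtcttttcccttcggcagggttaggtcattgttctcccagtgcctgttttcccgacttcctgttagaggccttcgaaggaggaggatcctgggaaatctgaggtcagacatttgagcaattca

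Few members were called for insulin. The members were chosen with earlier results of these data known, so the called shares here and below are descriptive and do not test the set. In colonized mice 1 of 38 members was called (an adjusted p under 0.05 from limma, Benjamini-Hochberg over 19572 probe sets), the lower Parp16, where 0.153% of all probe sets were called, 0.112% higher and 0.0409% lower. In germ-free mice no member was called by limma (5 at an unadjusted p under 0.05), against 0.439% of all probe sets (0.143% higher and 0.296% lower; 8.31% at the unadjusted threshold). The median member change was 0.058 in colonized and 0.032 in germ-free mice, beside 0.0048 and 0.0061 over all probe sets. The colonized median without animal 2 turned to -0.010 (-0.0081 over all probe sets), and 18 instead of 28 of the 38 members lay above 0. Of all 19572 probe sets, 9440 instead of 9973 lay above 0. For the difference of the insulin effects and for their mean, limma called 0 members (5 and 3 at an unadjusted p under 0.05), and 0.0358% and 0.419% of all probe sets (9.97% and 10.3% at the unadjusted threshold). Without colonized saline animal 2, Parp16 was called for the mean insulin effect (-0.56, adjusted p = 0.0343).

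More members were called between germ-free and colonized mice. After saline, Dnajb9, Atf4 and Psat1 were higher and Parp16 was lower in germ-free mice, so 4 of 38 members were called (10.5%), against 6.9% of all probe sets, 2.82% higher and 4.08% lower. After insulin, Dnajb9 and Psat1 were higher and Sdf2l1 and Shmt2 lower, again 4 of 38 members (10.5%), against 7.77% of all, 2.62% higher and 5.15% lower. For the mean of both germ-free effects 9 members were called (23.7%), 4 higher and 5 lower, where 17.6% of all probe sets were called, 6.14% higher and 11.5% lower. The median member change was -0.044 after saline and -0.051 after insulin, beside -0.040 and -0.032 over all probe sets. The median after saline was, without animal 2, -0.11, beside -0.045. Leaving out single animals gave other counts: for the contrast after saline 2 without animal 7 and 2 without animal 8, after insulin 7 without animal 2, 2 without animal 4, 2 without animal 5, 2 without animal 11 and 1 without animal 12, and for the mean effect 16 without animal 2. Without animal 2 the called shares were 15.8% of members after saline, 18.4% after insulin and 42.1% for the mean effect, against 9.9%, 14.6% and 25.1% of all probe sets.

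Groups that did not overlap were counted as well. The 3 insulin animals lay on one side of the 3 saline animals for 3 of 38 members in colonized mice, 2 higher and 1 lower (14.1% of all probe sets, 7.53% higher and 6.55% lower). In germ-free mice they did so for 10, 4 higher and 6 lower (19.7% of all, 9.55% higher and 10.1% lower). Germ-free and colonized animals did not overlap for 8 members after saline, 6 higher and 2 lower (27.3% of all, 11% higher and 16.4% lower). After insulin they did not overlap for 18, 6 higher and 12 lower (31.8% of all, 12% higher and 19.8% lower). These comparisons share arrays: the colonized saline group enters both the colonized insulin effect and the germ-free difference after saline.

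**Figure D2:**
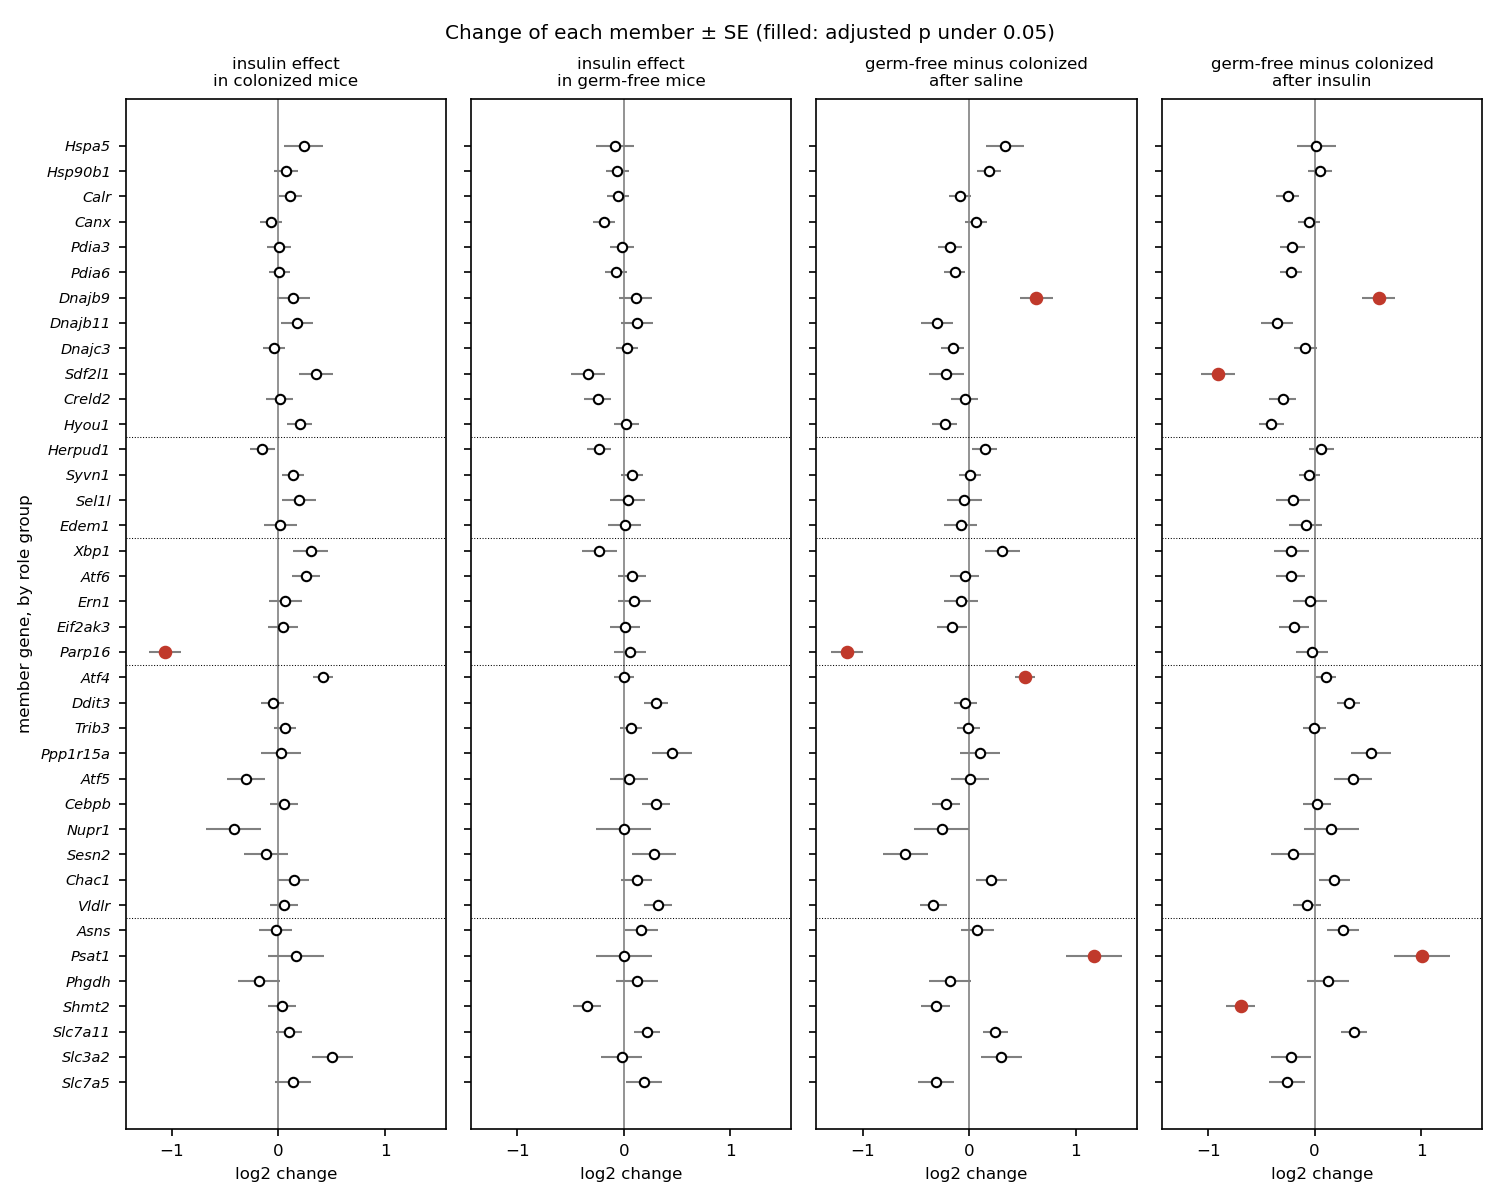
Change of each of the 38 members on the log2 scale (x axis, with the standard error of the limma fit) in 4 contrasts between groups of 3 animals, with genes on the y axis by role and filled points where the adjusted p was under 0.05. Parp16 is the lowest point in the panels for insulin in colonized mice and for germ-free mice after saline, and Psat1 is the highest in both germ-free panels.

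ER chaperones and folding enzymes were the largest group, with 12 members measured. None was called for insulin in either colonization state, and 10 of the 12 changes were above 0 in colonized mice and 4 of the 12 in germ-free mice. Over all 19572 probe sets, 9973 and 10105 changes were above 0. The colonized count was 5 of 12 with animal 2 left out. Hspa5 encodes BiP, the main ER chaperone and a standard readout of ER stress. Its values were 12.77, 11.90 and 12.70 in colonized mice given saline and 12.72, 12.67 and 12.70 in those given insulin, 12.77, 12.82 and 12.79 in germ-free mice given saline and 12.62, 12.74 and 12.77 in those given insulin. Animal 2 was the lowest, and the other 11 arrays lay between 12.62 and 12.82. The insulin effect of Hspa5 was 0.24 ± 0.18 (SE, n = 3 per group; 95% interval -0.16 to 0.63) in colonized and -0.083 ± 0.18 (interval -0.48 to 0.31) in germ-free mice, adjusted p = 0.617 and 0.977 by limma. Its colonized effect without animal 2 was -0.04 (adjusted p = 0.921).

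Dnajb9 encodes ERdj4, a BiP cochaperone that is induced through XBP1. It read 9.62, 9.72 and 9.71 in colonized mice given saline and 9.78, 9.68 and 10.01 in those given insulin, 10.43, 10.44 and 10.07 in germ-free mice given saline and 10.18, 10.36 and 10.73 in those given insulin. All 6 germ-free values lay above all 6 colonized values. Dnajb9 was higher in germ-free mice by 0.63 ± 0.15 after saline (limma adjusted p = 0.0326) and by 0.60 ± 0.15 after insulin (adjusted p = 0.0354), 1.55-fold and 1.52-fold. The call after saline ended when single animals were left out, with an adjusted p of 0.0778 without animal 1, 0.0551 without animal 3, 0.119 without animal 7, 0.113 without animal 8 and 0.0508 without animal 11, and so did the call after insulin, at 0.12 without animal 4, 0.124 without animal 5, 0.0878 without animal 11 and 0.135 without animal 12. The adjusted p was 0.16 with cortex markers as a covariate and 0.0788 with the compared groups alone for the contrast after saline, and 0.523 with adipocyte markers added and 0.0668 with liver markers added for that after insulin. Without animal 2 the change after saline was 0.65 (adjusted p = 0.0363).

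Sdf2l1, a subunit of ER chaperone complexes and another common ER stress readout, read 8.22, 7.95 and 8.29 in colonized mice given saline and 8.77, 8.68 and 8.08 in those given insulin, 7.85, 7.96 and 8.00 in germ-free mice given saline and 7.57, 7.60 and 7.63 in those given insulin. The germ-free insulin animals were the lowest of the 12, and colonized insulin animals 4 and 5 the highest. After insulin Sdf2l1 was lower in the germ-free group by 0.91 ± 0.16 (limma adjusted p = 0.00776), a call kept in all 12 fits that left out 1 animal. With adipocyte markers added the adjusted p was 0.318 and the change -0.51. All 6 germ-free values lay under the 95th percentile of their negative controls, which was higher than on colonized arrays, so the difference is not exact. The chromaffin markers were lowest in the same germ-free insulin animals, and their part was not tested. The insulin effects were 0.35 ± 0.16 in colonized and -0.34 ± 0.16 in germ-free mice, and their difference of -0.69 ± 0.23 was not called (adjusted p = 0.357).

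Hyou1, an ER chaperone of the HSP70 family also known for its response to low oxygen, read 10.77, 10.41 and 10.90 (animals 1 to 3), 10.95, 10.88 and 10.85 (4 to 6), 10.42, 10.49 and 10.48 (7 to 9) and 10.47, 10.53 and 10.46 (10 to 12). Animal 2 was the lowest of the 12, and the other 5 colonized animals lay above all 6 germ-free ones. The mean germ-free effect was -0.32 ± 0.085 (limma adjusted p = 0.0233). The adjusted p rose to 0.0564 without animal 4, 0.056 without animal 7 and 0.0514 without animal 12, and to 0.0855 after median centring, 0.289 with adipocyte markers added and 0.0867 with liver markers added. Without animal 2 the contrasts after saline (-0.37, adjusted p = 0.0323) and after insulin (-0.41, adjusted p = 0.00883) were called too. Animal 2 enters the contrast after insulin through the estimate of the spread only. That contrast was also called with all animals and dim probe sets left out (adjusted p = 0.0236).

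Dnajb11 encodes ERdj3, a cochaperone of BiP. Its values were 7.76, 7.90 and 7.41 (animals 1 to 3), 7.80, 7.85 and 7.94 (4 to 6), 7.59, 7.33 and 7.23 (7 to 9) and 7.34, 7.44 and 7.74 (10 to 12), with overlap after saline and none after insulin. The mean germ-free effect of -0.33 ± 0.11 was called at the edge of the threshold (limma adjusted p = 0.0497). All 6 germ-free values lay under the 95th percentile of their negative controls, which was higher than on colonized arrays, so its size is not exact. The call was lost with 9 of the 12 animals left out in turn (adjusted p = 0.0906 without animal 1, 0.0682 without animal 2, 0.0768 without animal 4, 0.0851 without animal 5, 0.0937 without animal 6, 0.101 without animal 8, 0.11 without animal 9, 0.11 without animal 10 and 0.107 without animal 11). The adjusted p was 0.153 after a second quantile normalization, 0.113 after median centring, 0.058 with array weights, 0.51 with cortex markers as a covariate and 0.115 with adipocyte markers added.

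Creld2, a folding factor released from the ER under stress, read 8.65, 8.46 and 8.52 (animals 1 to 3), 8.76, 8.58 and 8.32 (4 to 6), 8.40, 8.44 and 8.65 (7 to 9) and 8.15, 8.31 and 8.29 (10 to 12). Canx, the lectin chaperone calnexin, read 11.28, 11.10 and 11.12 (animals 1 to 3), 11.19, 11.00 and 11.09 (4 to 6), 11.23, 11.32 and 11.14 (7 to 9) and 10.92, 11.10 and 11.11 (10 to 12). For both genes the germ-free insulin animals lay below the germ-free saline animals, by 0.24 ± 0.13 and 0.19 ± 0.10, with no call (limma adjusted p = 0.669 and 0.713). Calr, Pdia3 and Pdia6, a lectin chaperone and disulfide isomerases, had mean germ-free effects of -0.17, -0.20 and -0.18. These were not called in the main fit of all arrays, and were called without animal 2 (adjusted p = 0.0222, 0.0337 and 0.0319). Pdia6 was also called with all arrays and dim probe sets left out (adjusted p = 0.0458). Hsp90b1 and Dnajc3, an HSP90 of the ER and a BiP cochaperone that inhibits eIF2 kinases, had changes between -0.16 and 0.18 in the 4 contrasts between groups, none called.

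None of the 4 degradation genes among the members was called in any contrast. Herpud1, which organises the ubiquitin ligase complex and whose promoter above carries both elements, read 10.96, 10.83 and 11.17 (animals 1 to 3), 10.70, 10.80 and 11.01 (4 to 6), 11.21, 11.04 and 11.14 (7 to 9) and 10.86, 10.89 and 10.95 (10 to 12). In germ-free mice the insulin animals all lay below the saline animals, by 0.23 ± 0.12 (limma adjusted p = 0.646). The ligase gene Syvn1 read 8.74, 8.58 and 8.88 (animals 1 to 3), 8.83, 8.91 and 8.86 (4 to 6), 8.70, 8.69 and 8.84 (7 to 9) and 8.87, 8.81 and 8.77 (10 to 12). Its adaptor Sel1l read 9.57, 9.08 and 9.70 (animals 1 to 3), 9.49, 9.72 and 9.72 (4 to 6), 9.43, 9.44 and 9.35 (7 to 9) and 9.22, 9.44 and 9.66 (10 to 12). Edem1, which marks misfolded glycoproteins for degradation, read 9.19, 8.64 and 9.32 (animals 1 to 3), 9.08, 8.99 and 9.13 (4 to 6), 9.01, 9.02 and 8.89 (7 to 9) and 8.84, 9.03 and 9.08 (10 to 12). Animal 2 held the lowest value of the 12 arrays for Syvn1, Sel1l and Edem1. The insulin effects of these 3 genes lay between 0.0092 and 0.19 in the 2 colonization states. Leaving out animal 2, the colonized effect of Edem1 turned to -0.19, that of Sel1l was 0.0051 and that of Syvn1 0.056.

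Of the 5 sensors and other response factors, only Parp16, which is not a sensor itself, was called with all arrays, in 3 contrasts. Its product is an ADP-ribosyltransferase of the ER membrane that is known to modify PERK and IRE1. Parp16 read 8.27, 8.11 and 8.56 in colonized saline animals and 7.04, 7.17 and 7.52 in colonized insulin animals, 7.17, 7.10 and 7.22 in germ-free mice given saline and 7.37, 7.24 and 7.05 in those given insulin. The colonized saline animals lay above all 9 other animals, and the other 3 groups overlapped. Insulin lowered Parp16 in colonized mice by 1.07 ± 0.15 (limma adjusted p = 0.0224), and saline-treated germ-free mice were lower than colonized ones by 1.15 ± 0.15 (adjusted p = 0.00176). In germ-free mice the insulin effect was 0.058 ± 0.15 (interval -0.27 to 0.38).

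The difference between the insulin effects on Parp16, 1.13 ± 0.21, was the largest of any member but was not called (limma adjusted p = 0.0838; unadjusted p = 0.000175). The mean germ-free effect of -0.59 (adjusted p = 0.00347) averages -1.15 and -0.023. Without animal 2 the insulin effect in colonized mice was -1.17 (adjusted p = 0.018) and the germ-free difference after saline -1.25 (adjusted p = 0.00147). The call after saline held in all 12 fits without 1 animal and in all 9 other alternatives that tested it. The insulin call did not: its adjusted p was 0.148 without animal 4, 0.136 without animal 5, 0.0556 without animal 7, 0.0542 without animal 8, 0.0569 without animal 9 and 0.0533 without animal 11. It was 0.0551 with cortex markers as a covariate, 0.11 with adipocyte markers added, 0.0627 with liver markers added and 0.47 with the compared groups alone. In all but 4 arrays Parp16 lay under the 95th percentile of its array's negative controls, so the size of its changes is not exact.

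Xbp1, the transcription factor made active by IRE1 splicing, read 11.18, 10.82 and 11.66 in colonized mice given saline and 11.56, 11.47 and 11.54 in those given insulin, 11.50, 11.54 and 11.55 in germ-free mice given saline and 11.28, 11.29 and 11.34 in those given insulin. Its insulin effects of 0.30 ± 0.16 and -0.23 ± 0.16 had opposite signs, and the difference of -0.53 ± 0.23 was not called (limma adjusted p = 0.484). The colonized saline animals held both the lowest and the highest of the 12 values. The colonized effect of Xbp1 without animal 2 was 0.10 (adjusted p = 0.83). Atf6 read 9.99, 9.46 and 9.90 (animals 1 to 3), 9.98, 9.96 and 10.17 (4 to 6), 9.80, 9.78 and 9.63 (7 to 9) and 9.83, 9.76 and 9.84 (10 to 12), Ern1 10.34, 9.74 and 10.49 (animals 1 to 3), 10.19, 10.31 and 10.26 (4 to 6), 10.07, 10.17 and 10.09 (7 to 9) and 10.15, 10.27 and 10.20 (10 to 12), and Eif2ak3 8.99, 8.55 and 9.18 (animals 1 to 3), 8.88, 8.97 and 9.01 (4 to 6), 8.70, 8.75 and 8.79 (7 to 9) and 8.87, 8.68 and 8.73 (10 to 12). In each of these 3 sensor genes animal 2 was lowest of the 12 arrays, and no contrast was called with all arrays. Without it, the mean germ-free effects of Atf6 (-0.21, adjusted p = 0.0472) and Eif2ak3 (-0.27, adjusted p = 0.0174) were called.

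**Figure D3:**
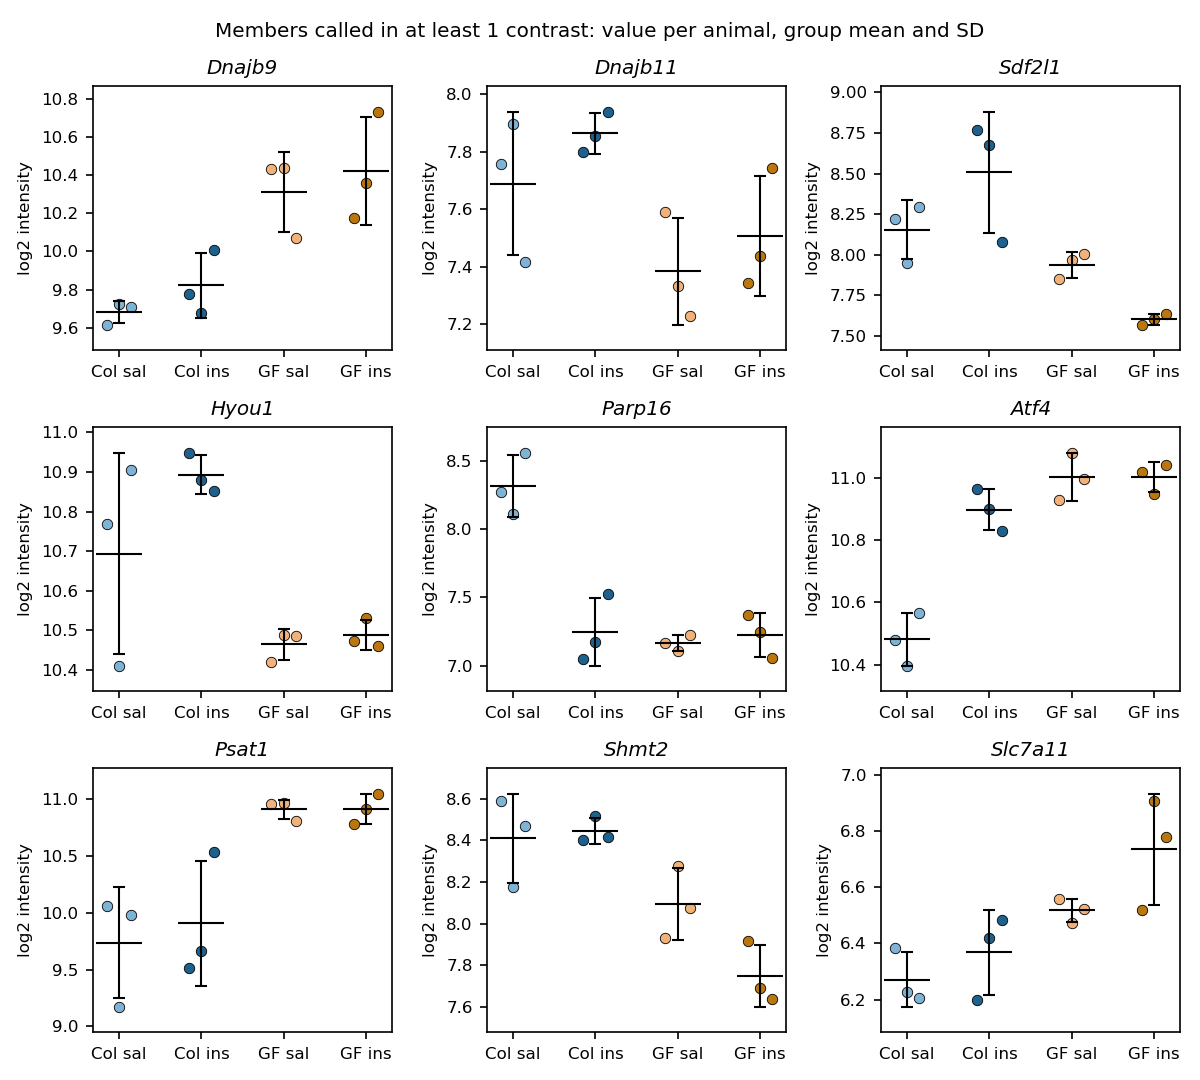
Log2 intensity (y axis) of the 9 members called in at least 1 contrast, by group (x axis; Col, colonized; GF, germ-free; sal, saline; ins, insulin), with 1 point per animal, the group mean as a line and the SD of 3 animals as a bar. Parp16 is high and Atf4 low in the colonized saline animals alone, while Dnajb9 and Psat1 are higher in all 6 germ-free animals than in any colonized animal.

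Atf4, the central factor of the amino acid and PERK response, was called between the saline groups. It read 10.48, 10.40 and 10.57 in colonized mice given saline and 10.96, 10.90 and 10.83 in those given insulin, 10.93, 11.08 and 11.00 in germ-free mice given saline and 11.02, 10.95 and 11.04 in those given insulin. The 3 colonized saline animals lay below all 9 others. After saline the germ-free values of Atf4 were higher by 0.52 ± 0.093 (limma adjusted p = 0.00924, 1.43-fold), a call kept in all 12 fits without 1 animal. Without animal 2 it was 0.48 (adjusted p = 0.0141). With all arrays the adjusted p was 0.129 with cortex markers as a covariate, whose slope rests mostly on colonized saline animals. It was 0.0769 with the compared groups alone. After insulin the germ-free difference was 0.11 ± 0.093 (adjusted p = 0.572). The insulin effect in colonized mice, 0.42 ± 0.093, had an unadjusted p of 0.000771 and was not called (adjusted p = 0.129; 0.0398 and called with dim probe sets left out), and in germ-free mice it was 0.0015 ± 0.093 (interval -0.20 to 0.20). The difference of the insulin effects was -0.42 ± 0.13 and not called (adjusted p = 0.336). ATF4 protein is set largely by translation, which these arrays do not measure.

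None of the other 9 genes of this group was called in the main fit of all arrays. Ddit3 encodes CHOP, a transcription factor of prolonged stress, and read 8.69, 8.65 and 8.64 (animals 1 to 3), 8.41, 8.59 and 8.81 (4 to 6), 8.59, 8.69 and 8.59 (7 to 9) and 8.99, 8.96 and 8.83 (10 to 12). The germ-free insulin animals were the highest of the 12, with an insulin effect of 0.30 ± 0.11 in germ-free and -0.054 ± 0.11 in colonized mice, neither called (limma adjusted p = 0.441 and 0.874). The germ-free difference of Ddit3 after insulin was 0.32 ± 0.11 and not called (adjusted p = 0.105). With dim probe sets left out it was called (adjusted p = 0.0418). A second probe set of Ddit3 gave 0.086 for this difference (adjusted p = 0.793). Ppp1r15a encodes GADD34, which reverses eIF2 phosphorylation, and read 6.38, 5.65 and 6.35 (animals 1 to 3), 6.28, 6.11 and 6.06 (4 to 6), 6.15, 6.40 and 6.14 (7 to 9) and 6.46, 6.67 and 6.92 (10 to 12). Its insulin effect in germ-free mice was 0.45 ± 0.19 (adjusted p = 0.534), and the germ-free difference after insulin of 0.53 ± 0.19 (adjusted p = 0.112) was called without animal 2 (adjusted p = 0.0167). The difference itself was the same without animal 2, which enters this contrast through the estimate of the spread only.

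Trib3, a pseudokinase induced by ATF4 and CHOP, read 5.92, 6.04 and 6.00 (animals 1 to 3), 6.14, 6.08 and 5.93 (4 to 6), 5.95, 6.00 and 5.98 (7 to 9) and 6.20, 5.89 and 6.06 (10 to 12), and Sesn2, which restrains mTORC1 when amino acids are scarce, 6.72, 5.83 and 6.63 (animals 1 to 3), 6.09, 6.49 and 6.26 (4 to 6), 5.70, 6.01 and 5.67 (7 to 9) and 6.08, 5.95 and 6.20 (10 to 12). Both lay under the 95th percentile of the negative controls on all 12 arrays, as did Ppp1r15a, Chac1, Phgdh and Slc7a11, so their differences are not exact. The germ-free difference of Sesn2 after saline was -0.60 ± 0.21 (limma adjusted p = 0.104), and -0.88 (adjusted p = 0.00573) without animal 2. Chac1, which degrades glutathione, had changes from 0.12 to 0.21 in the 4 contrasts between groups, none called.

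Atf5, a factor of the mitochondrial stress response, read 7.32, 8.15 and 7.48 (animals 1 to 3), 7.28, 7.51 and 7.25 (4 to 6), 7.73, 7.62 and 7.63 (7 to 9) and 7.83, 7.70 and 7.59 (10 to 12). Nupr1, a stress-induced chromatin protein, read 8.21, 9.59 and 8.53 (animals 1 to 3), 8.27, 8.40 and 8.40 (4 to 6), 8.50, 8.46 and 8.59 (7 to 9) and 8.62, 8.39 and 8.54 (10 to 12). Animal 2 held the highest value of the 12 for both, and for Nupr1 it exceeded the next array by more than the whole range of the others. Without it the germ-free difference of Atf5 after insulin of 0.36 was called (limma adjusted p = 0.0394, against 0.266 with all arrays); animal 2 enters this contrast through the estimate of the spread only. All 6 germ-free values of Atf5 lay under the 95th percentile of their negative controls, which was higher than on colonized arrays. Vldlr, a lipoprotein receptor, read 8.42, 8.83 and 8.89 (animals 1 to 3), 8.83, 8.65 and 8.82 (4 to 6), 8.35, 8.39 and 8.39 (7 to 9) and 8.82, 8.72 and 8.56 (10 to 12), lower in all germ-free saline animals than in any other animal, with a difference of -0.34 ± 0.13 from colonized saline animals that was not called (adjusted p = 0.141). Cebpb, a dimerisation partner of ATF4, had an insulin effect of 0.30 ± 0.13 in germ-free mice (adjusted p = 0.578). All 6 germ-free values of Cebpb lay under the germ-free percentile. The colonized values of 8.01 to 8.31 lay above the lower colonized percentile. In all, 9 of the 10 genes of this group had an insulin effect above 0 in germ-free mice and 6 of 10 in colonized mice, with medians of 0.20 and 0.037 and no call. With animal 2 left out, the colonized count was 4 of 10 and the median -0.010. Over all 19572 probe sets, 10105 insulin effects lay above 0 in germ-free and 9973 in colonized mice. Of the genes counted, Trib3, Ppp1r15a, Atf5, Cebpb, Sesn2 and Chac1 lay under the 95th percentile of the negative controls on every germ-free array.

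The genes of amino acid supply held the largest increase in germ-free mice. Psat1, the aminotransferase of serine synthesis, read 10.06, 9.17 and 9.98 in colonized mice given saline and 9.51, 9.67 and 10.54 in those given insulin, 10.95, 10.96 and 10.81 in germ-free mice given saline and 10.78, 10.91 and 11.05 in those given insulin. All 6 germ-free values lay above all 6 colonized values, and the colonized animals spread over a wider range. Germ-free exceeded colonized values of Psat1 by 1.17 ± 0.26 after saline (limma adjusted p = 0.0239, 2.25-fold) and by 1.01 ± 0.26 after insulin (adjusted p = 0.0376, 2.01-fold). The mean effect of 1.09 ± 0.19 (adjusted p = 0.00259) kept its call in all 12 fits without 1 animal. With cortex markers as a covariate the mean effect was 0.66 and not called (adjusted p = 0.0659). The call after saline was lost, with an adjusted p of 0.0809 without animal 7, 0.0769 without animal 8 and 0.059 without animal 9. It was 0.47 with cortex markers as a covariate and 0.0694 with the compared groups alone. The change after saline with cortex markers, whose slope rests mostly on colonized saline animals, was 0.47. Leaving out animal 2, the change after saline was 0.89 (adjusted p = 0.0357). The call after insulin was lost with an adjusted p of 0.154 without animal 4, 0.13 without animal 5, 0.0548 without animal 7, 0.0558 without animal 8, 0.0552 without animal 9, 0.07 without animal 10, 0.107 without animal 11 and 0.13 without animal 12. It was 0.0511 with trend and robust moderation and 0.301 with adipocyte markers added.

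Phgdh and Shmt2 act in the same pathway. Phgdh, the first enzyme of serine synthesis, read 5.51, 6.31 and 5.72 (animals 1 to 3), 5.62, 5.54 and 5.84 (4 to 6), 5.55, 5.90 and 5.56 (7 to 9) and 5.55, 5.84 and 5.98 (10 to 12), and no contrast was called. Shmt2, the mitochondrial enzyme that turns serine into glycine, read 8.59, 8.17 and 8.47 (animals 1 to 3), 8.40, 8.52 and 8.42 (4 to 6), 7.93, 8.28 and 8.08 (7 to 9) and 7.92, 7.69 and 7.64 (10 to 12). After insulin all germ-free animals lay below all colonized animals, by 0.69 ± 0.13 (limma adjusted p = 0.0103). The adjusted p was 0.0549 without animal 12 and 0.344 with adipocyte markers added. After saline the difference was -0.32 ± 0.13 (adjusted p = 0.172), and the mean germ-free effect was -0.51 ± 0.094 (adjusted p = 0.00404). With adipocyte markers added the mean effect was -0.35 and not called (adjusted p = 0.0961). All 6 germ-free values lay under the 95th percentile of their negative controls, which was higher than on colonized arrays, so these sizes are not exact.

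Asns, the asparagine synthetase and a textbook ATF4 target, read 9.39, 9.85 and 9.30 (animals 1 to 3), 9.71, 9.49 and 9.27 (4 to 6), 9.52, 9.57 and 9.69 (7 to 9) and 9.66, 9.78 and 9.82 (10 to 12). Its groups overlapped in every comparison of germ-free with colonized animals, and no contrast was called (limma adjusted p = 0.806 and 0.334 after saline and insulin). Slc7a11, the cystine transporter, read 6.38, 6.23 and 6.20 (animals 1 to 3), 6.20, 6.42 and 6.49 (4 to 6), 6.56, 6.47 and 6.52 (7 to 9) and 6.52, 6.91 and 6.78 (10 to 12). The mean germ-free effect of 0.31 ± 0.085 was called (adjusted p = 0.0282), although its values lay within the negative control range. The adjusted p was 0.0558 without animal 3, 0.0716 without animal 4, 0.0652 without animal 7, 0.0507 without animal 8, 0.055 without animal 9, 0.0732 without animal 11 and 0.0625 without animal 12. It was 0.152 with cortex markers as a covariate and 0.147 with adipocyte markers added.

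Slc3a2, the heavy chain that carries Slc7a11 and Slc7a5 to the cell surface, read 12.43, 11.55 and 12.42 (animals 1 to 3), 12.71, 12.67 and 12.54 (4 to 6), 12.37, 12.42 and 12.52 (7 to 9) and 12.45, 12.43 and 12.37 (10 to 12). All colonized insulin animals exceeded all colonized saline animals, by 0.50 ± 0.19 with animal 2 lowest, and the effect was not called (limma adjusted p = 0.347). Without animal 2 it was 0.21 (adjusted p = 0.481). Slc7a5, the large neutral amino acid transporter, read 10.38, 10.06 and 10.49 (animals 1 to 3), 10.23, 10.40 and 10.71 (4 to 6), 9.68, 10.16 and 10.15 (7 to 9) and 10.28, 10.23 and 10.04 (10 to 12). Its mean germ-free effect was -0.29 ± 0.12 (adjusted p = 0.119), and -0.35 (adjusted p = 0.0434) without animal 2.

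**Figure D4:**
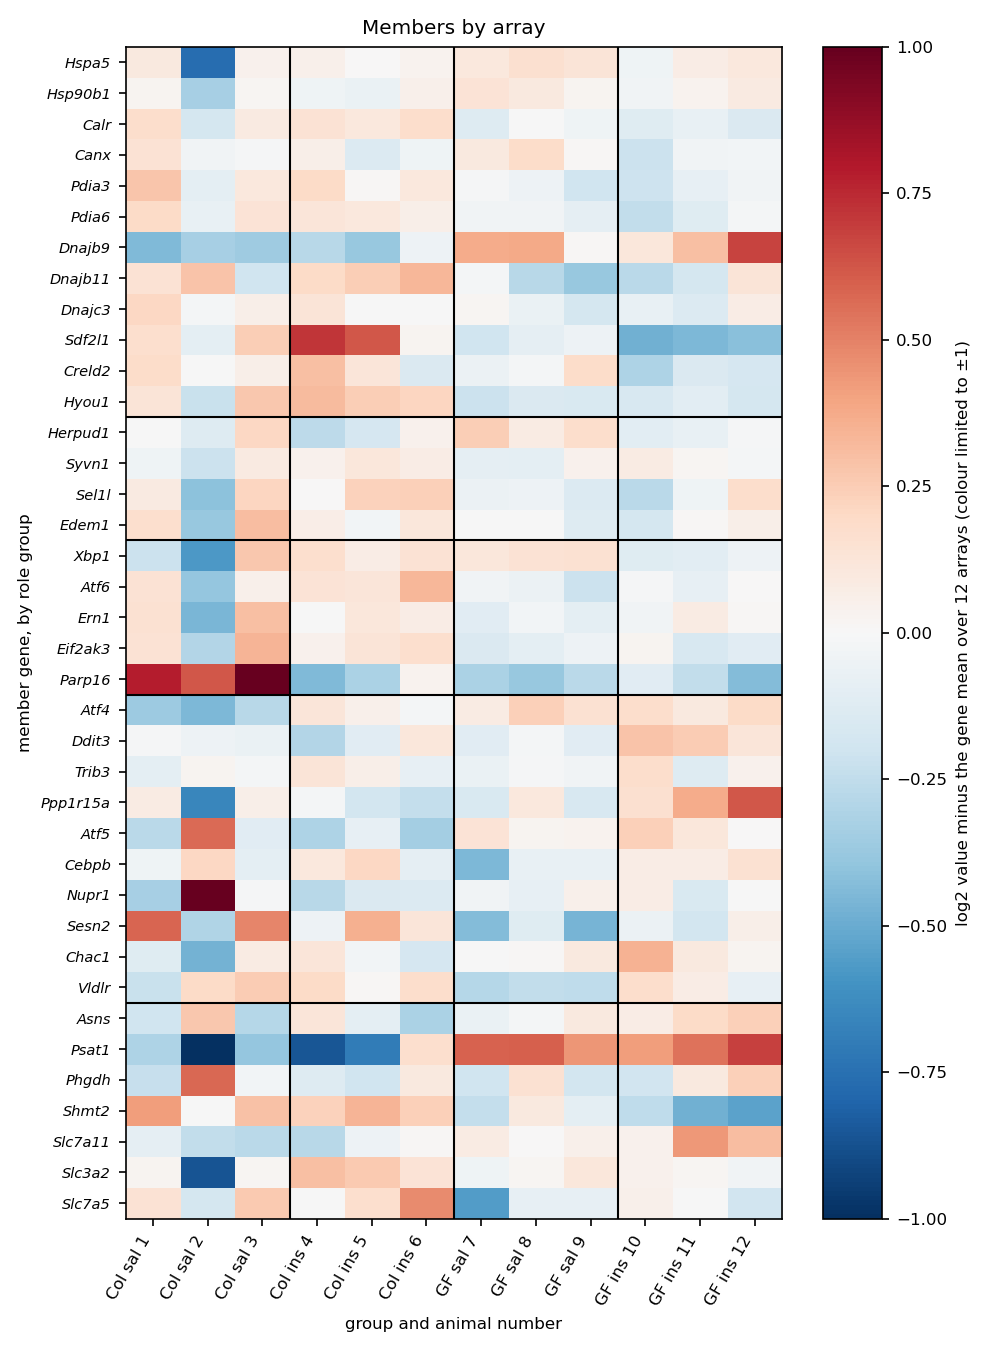
Log2 value of each of the 38 members (y axis, by role) in each of the 12 arrays (x axis), minus the gene's mean over the arrays, with colour limited to 1 in either direction. The column of colonized saline animal 2 is blue, below the mean, for many folding, degradation and sensor genes, and the rows of Parp16, Atf4, Dnajb9 and Psat1 change colour between groups.

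The called members were also counted by promoter element. Of the 10 members with ERSE or ERSE-II, 1 was called in any contrast (Dnajb11, for the mean germ-free effect). Of the 7 members with CARE, 1 was called (Slc7a11, same contrast), and of the 19 members with a promoter and none of the 4 elements, 6 were called, where 19.3% of all probe sets were called in any of the 7 contrasts. The insulin effects of the 10 ERSE or ERSE-II genes ranged from -0.15 to 0.24 in colonized and from -0.24 to 0.12 in germ-free mice. Those of the 7 CARE genes ranged from -0.42 to 0.14 and from -0.23 to 0.32. The groups of genes were compared by counts and ranges and not tested.

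Of 104 other genes of these pathways (translocon, further folding and degradation factors, sensors, eIF2 kinases and ATF4 targets), 94 were measured. None was called for insulin in either state by limma (8 in colonized and 2 in germ-free mice at an unadjusted p under 0.05, where 11.8% and 8.31% of all probe sets stood). After saline 5 were called, all higher in germ-free mice (5.32%, against 6.9% of all probe sets). After insulin 6 were called, 3 in each direction (6.38%, against 7.77%). For the mean germ-free effect 6 were called higher and 7 lower (13.8%, against 17.6%). The 3 shares were all below the background shares. Without animal 2, 7, 14 and 21 of the 94 genes were called in these 3 contrasts (7.45%, 14.9% and 22.3%, against 9.9%, 14.6% and 25.1% of all probe sets).

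The called ATF4 targets of this wider list included a stress factor and metabolic genes. Atf3, a stress-induced transcription factor, was higher in germ-free mice by 0.86 ± 0.15 after saline and 0.56 ± 0.15 after insulin (limma adjusted p = 0.00878 and 0.0455), and its mean insulin effect was 0.54 ± 0.11 (adjusted p = 0.0626). Vegfa, the angiogenic growth factor, was higher by 1.04 ± 0.18 and 0.95 ± 0.18 (adjusted p = 0.00702 and 0.00885). Got1, the cytosolic aspartate aminotransferase, and Eprs, the glutamyl-prolyl tRNA synthetase, were higher after saline by 1.28 ± 0.27 and 1.38 ± 0.22 (adjusted p = 0.0172 and 0.00515). Eprs read 11.84, 11.01 and 12.14 in colonized mice given saline and 12.29, 12.37 and 12.52 in those given insulin, 13.09, 13.07 and 12.98 in germ-free mice given saline and 12.77, 12.98 and 13.01 in those given insulin, with the colonized saline animals lowest. Without animal 2 the saline differences of Atf3, Vegfa, Got1 and Eprs were 0.81, 0.85, 0.89 and 1.06, all called (adjusted p = 0.0146, 0.00831, 0.00706 and 0.00128). Cars, another tRNA synthetase gene, was higher for the mean effect (0.29 ± 0.089). Mthfd2 and Jdp2, a mitochondrial folate enzyme and a bZIP repressor, were lower for the mean effect (-0.33 ± 0.079 and -0.39 ± 0.11). All germ-free values of Mthfd2 and Jdp2 lay under the percentile of the negative controls used above, and all colonized values lay above it. That percentile was higher on germ-free than on colonized arrays, so the sizes of these decreases are not exact.

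On the ER side of the wider list, Sec61g, a small subunit of the protein translocation channel, was higher in germ-free mice by 0.50 ± 0.096 after saline and 0.35 ± 0.096 after insulin (limma adjusted p = 0.0116 and 0.0484). Creb3l1, an ER-anchored transcription factor cleaved like ATF6, was lower in germ-free than in colonized mice after insulin, by 0.84 ± 0.15 (adjusted p = 0.00832). Its means were 8.51 and 9.21 in colonized mice given saline and insulin, and 8.34 and 8.37 in germ-free ones. The insulin effect in colonized mice, 0.70 ± 0.15 with animal 2 lowest (8.15), was not called (limma adjusted p = 0.122). The ERAD lectin gene Os9 was also lower in germ-free mice after insulin, by 0.59 ± 0.15 (adjusted p = 0.0365). So was Eif2b1, a subunit of the eIF2 exchange factor, by 0.37 ± 0.095 (adjusted p = 0.0371). All germ-free values of Eif2b1 lay under the percentile of the negative controls used above, and all colonized values lay above it. That percentile was higher on germ-free than on colonized arrays, so the size of the Eif2b1 difference is not exact. Sil1, the exchange factor of BiP, and the ubiquitin ligase gene Rnf5 were lower for the mean effect (-0.28 ± 0.07 and -0.35 ± 0.09). Without animal 2, Os9 and Rnf5 were called after saline too, at -0.64 (adjusted p = 0.00702) and -0.46 (adjusted p = 0.0215). The marker ranges and negative control values given above stand beside every germ-free difference. The part of chromaffin, intestinal and pituitary markers was not tested, cortex, adipocyte and liver markers entered as covariates, and the negative control level cannot be told apart from colonization.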

How the data were processed

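RNA from the dissected medulla of 12 mice was hybridised to Affymetrix arrays. The deposited values are log2 intensities per probe set that the authors made with RMA, per the submitters' processing notes, which also name limma. Versions, and whether all arrays were normalized together, are not given in the sources used here. The table has 28846 rows, of which 19572 carry 1 gene symbol (19505 genes) in the platform annotation; 5222 are negative controls. Arrays of 1 group correlated at 0.954 to 0.993, with a lowest value of 0.987 without colonized saline animal 2, and no columns were identical. The number of arrays limits the precision.

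One mean per group was estimated from the 12 arrays together (limma 3.58.1, R 4.3.3; 8 residual and 4.08 prior degrees of freedom), with 7 contrasts, two-sided tests and Benjamini-Hochberg adjustment over 19572 probe sets. Genes called had an adjusted p under 0.05, and errors are standard errors. The members and gene lists were chosen with earlier results of these data known. Array values are given for called members, the 3 members of each role group with the lowest p in each contrast between groups, and Hspa5, Xbp1, Atf4, Ddit3, Trib3 and Asns. From the wider list, called genes are named. Genomic positions of the probe sets are not reported, since the build of the annotation is not given; promoters are RefSeq's. Alternatives were the removal of dim probe sets (threshold 7.96, which left 29 members), 1 probe set per gene, 2 further normalizations, other moderation, array weights, the compared groups alone, covariates for cortex, adipocyte and liver markers (liver was chosen after seeing the data, as was leaving animal 2 out for the wider list) and leaving out each array. The fit was tested on simulated data.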

Additional observations from a re-analysis of the deposited data

How the results depend on the processing

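No called member changed direction under any alternative. The count of members called for insulin in colonized mice (1) was 0 with the cortex, adipocyte or liver covariate and with the compared groups alone, and 0 to 1 without single animals; with dim probe sets left out Parp16 was not tested and Atf4 was called, higher (adjusted p = 0.0398). For germ-free mice it was 0 throughout. For the difference it was 1 with array weights and with the liver covariate and otherwise 0, with 0 to 0 without single animals. For the mean insulin effect it was 1 with array weights and with the cortex covariate and 0 to 1 without single animals. For germ-free minus colonized after saline (4) it was 7 with array weights, 7 with the liver covariate, 1 with the compared groups alone and 2 to 6 without single animals. After insulin (4) it was 9 with array weights, 9 with the cortex covariate, 0 with the adipocyte covariate and 1 to 7 without single animals. For the mean germ-free effect (9) it was 16 with array weights, 17 with the cortex covariate, 3 with the adipocyte covariate and 6 to 16 without single animals. The cause of these shifts was not tested. No paired analysis was possible because the 4 groups share no animal number. Within the dim filter, 9 members were not tested.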

Other observations

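Ddit3 had a second probe set, which read 7.57, 8.16 and 7.77 in colonized saline, 7.58, 7.65 and 7.90 in colonized insulin, 7.65, 7.81 and 7.73 in germ-free saline and 7.82, 7.84 and 7.72 in germ-free insulin animals. Its insulin effect in germ-free mice was 0.066 (limma adjusted p = 0.977), where the brighter probe set gave 0.30. Slc1a5, the glutamine transporter and an ATF4 target of the wider list, had a germ-free difference after insulin of 1.93 ± 0.59 that was not called (limma adjusted p = 0.0679, and 0.0124 without colonized saline animal 2), with an insulin effect of -0.72 ± 0.59 in colonized and 0.68 ± 0.59 in germ-free mice. Animal 2 enters the difference after insulin through the estimate of the spread only.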
